A study of Mus musculus with 18 samples.

Results

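Sperm development in the mouse uses its own versions of several widely expressed transcription factors. The 10 genes described here are Crem, Creb1, Fhl5, Tbpl1, Tbp, Gtf2a1l, Gtf2a1, Taf7l, Taf4b and Brdt, out of 18193 genes that a probe set on the array names alone. They were taken by name as CREM, its testis coactivator, the testis forms of general transcription factors and their widely expressed relatives, and every probe set annotated to one of them alone was read. That gave 26 probe sets, of which 24 passed the filter on low signal. Values are MAS5 signal, the Affymetrix software's intensity estimate for a probe set, and a log2 difference of 1 is a doubling of it.

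The arrays measured whole-testis RNA at 14 and 17 days postpartum (dpp), from repro9/repro9 mutants and from wild-type mice. The repro9 allele lies in Mybl1, the gene of A-MYB, which regulates transcription in male germ cells during meiosis. There were 5 mutant and 3 wild-type arrays at 14 dpp and 5 of each genotype at 17 dpp (18 in all), and these numbers limit the precision. The series' text places early to middle pachytene cells at the younger age, and late pachytene to diplotene cells at the older. The mutation is present in every cell of the animal, no strain is given in the labels, and no source ties an array to a single mouse, so p-values measure the spread between arrays, which may be technical.

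CREM binds cAMP response elements and drives genes of haploid germ cells, and Fhl5 (also called ACT) is a LIM-only coactivator that it uses in the testis. CREB1 is its widely expressed relative. At core promoters, TBP nucleates transcription by RNA polymerase II with TFIIA and the TAF subunits of TFIID. Germ cells add TBPL1 (also called TRF2), a TBP relative needed in spermiogenesis, GTF2A1L (also called ALF), a testis form of the large TFIIA subunit GTF2A1, and the TAF paralogues TAF7L and TAF4B. BRDT is the testis member of the BET family and reads acetylated histones through its bromodomains.

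Facts of the whole series bear on these values. Array medians lay between 88.7 and 149. By the ratio of β-actin control signals at the 3′ and 5′ ends of the transcript, a sign of RNA integrity and labelling, the arrays fell into 3 sets, which no label gives. It was 2.31 to 2.92 on the 7 arrays of set 1, 1.45 to 1.49 on the 4 arrays of set 2 and 102.6 to 125.1 on the 7 arrays of set 3. Set 1 held replicates 1 and 2 of both mutant groups, replicates 1 and 2 of wild type at 14 dpp and replicate 1 of wild type at 17 dpp. Set 2 held the other arrays of 14 dpp, and set 3 the other arrays of 17 dpp. Each set held both genotypes. At the brighter Mybl1 probe set, every mutant array lay below every wild-type array of its age, with geometric means of 126 and 637 at 14 dpp and of 167 and 1831 at 17 dpp. The median log2 difference of all 15307 genes tested was 0.003 at 14 dpp and 0.26 at 17 dpp, and scaling all arrays to a common median lowered the 17 dpp differences by 0.14.

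RefSeq (build GRCm38.p6) gave promoters for 8 of the 10 members, all but Crem and Taf4b. The 250 bases before the start of 4 of them are shown because Gtf2a1l, Brdt and Tbpl1 fell together in the mutant testis and Tbp is the widely expressed relative of Tbpl1. They are chr17:88668410-88668659 (plus strand) for Gtf2a1l, chr5:107330944-107331193 (plus strand) for Brdt, chr10:22731448-22731697 (minus strand) for Tbpl1 and chr17:15499638-15499887 (plus strand) for Tbp. Capitals mark the core of the MYB recognition sequence, AACNG, on either strand.
Gtf2a1l: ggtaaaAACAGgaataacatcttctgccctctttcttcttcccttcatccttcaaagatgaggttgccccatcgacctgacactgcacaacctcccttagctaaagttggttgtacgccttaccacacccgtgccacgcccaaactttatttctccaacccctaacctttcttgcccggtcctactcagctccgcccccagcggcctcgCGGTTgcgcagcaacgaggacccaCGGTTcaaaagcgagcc
Brdt: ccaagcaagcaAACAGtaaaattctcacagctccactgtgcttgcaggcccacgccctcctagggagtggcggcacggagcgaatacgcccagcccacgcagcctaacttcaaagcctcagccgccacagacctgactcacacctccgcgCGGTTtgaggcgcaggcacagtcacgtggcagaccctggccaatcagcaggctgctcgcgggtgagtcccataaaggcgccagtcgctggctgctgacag
Tbpl1: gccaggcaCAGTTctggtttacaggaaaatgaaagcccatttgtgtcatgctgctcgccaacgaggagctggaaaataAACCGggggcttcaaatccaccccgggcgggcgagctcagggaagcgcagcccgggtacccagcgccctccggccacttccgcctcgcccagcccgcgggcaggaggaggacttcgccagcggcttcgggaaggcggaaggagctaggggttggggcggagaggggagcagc
Tbp: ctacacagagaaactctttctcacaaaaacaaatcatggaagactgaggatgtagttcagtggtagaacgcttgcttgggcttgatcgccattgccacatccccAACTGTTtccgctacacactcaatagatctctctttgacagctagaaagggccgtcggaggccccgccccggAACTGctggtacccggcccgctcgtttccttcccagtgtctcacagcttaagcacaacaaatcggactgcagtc
The core is short: 80.3% of all 32851 promoters of 300 bases (250 before and 50 after the start) held it on either strand, and so did all 8 members. The longer MYB word CAACTG, or one of its variants (the word CAACGG, the word TAACTG and the word TAACGG), stood in 28.3% of all promoters and in those of 3 of the 8 members, Tbp, Gtf2a1 and Taf7l. Each of these contains the core, and none stood in the window of Gtf2a1l, Brdt or Tbpl1. The cAMP response element core TGACG, searched on both strands, stood in 20.8% of all promoters and in those of Tbp and Gtf2a1. The TATA word TATAAA stood in 13.6% of all promoters and in that of Taf7l alone among the members. Members were counted by gene, over any of their promoters. Counted that way, 82.4% of 27025 genes held the core, 31.1% the longer MYB word or a variant, 23.0% TGACG and 15.7% TATAAA. These matches describe the letters of the windows.

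The comparison at 17 dpp asked how these factors differed between the Mybl1 genotypes. The testis TFIIA gene Gtf2a1l was 31.2-fold lower in mutants, Brdt was 3.39-fold lower, Tbpl1 3.17-fold lower and Crem 2.28-fold lower, each at the brightest tested probe set of the gene. The relatives Creb1 and Gtf2a1 did not pass the test at theirs. Tbp was 2.37-fold lower, more than Crem, and did not pass, nor did Taf7l and Taf4b, whose means were higher in mutants. With the array set in the model these 3 did pass (adjusted p = 0.00370, 2.74e-05 and 0.00132), and the call of Crem at this probe set was lost under 4 settings and without each of 4 arrays. A probe set passed, or was called, where its p from limma, a linear model with moderated variances, was under 0.05 after Benjamini-Hochberg adjustment over all 34764 probe sets tested. Over the 24 probe sets, 6 were called lower and 0 higher by limma at 17 dpp (14 had an unadjusted p under 0.05), against 3.86% of all probe sets called lower and 1.48% called higher. With the array set added to the model as a block (the set block), 9 were called lower and 4 higher, against 8.05% and 10.8% of all. At 14 dpp 1 of the 24 was called, against 0.196% of all probe sets, and with the set block 2, both lower, against 0.357%. Within set 1 at 17 dpp, 3 were called lower and 1 higher, against 2.6% and 0.25% of all, and within set 3 the counts were 8 and 3, against 6.07% and 5.45%. Every mutant array was below every wild-type array for 6 of the 24 at 17 dpp, against 3.31% of all probe sets. At 14 dpp that held for 3, against 3.08%, and the reverse for 2, against 2.37%.

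**Figure D1:**
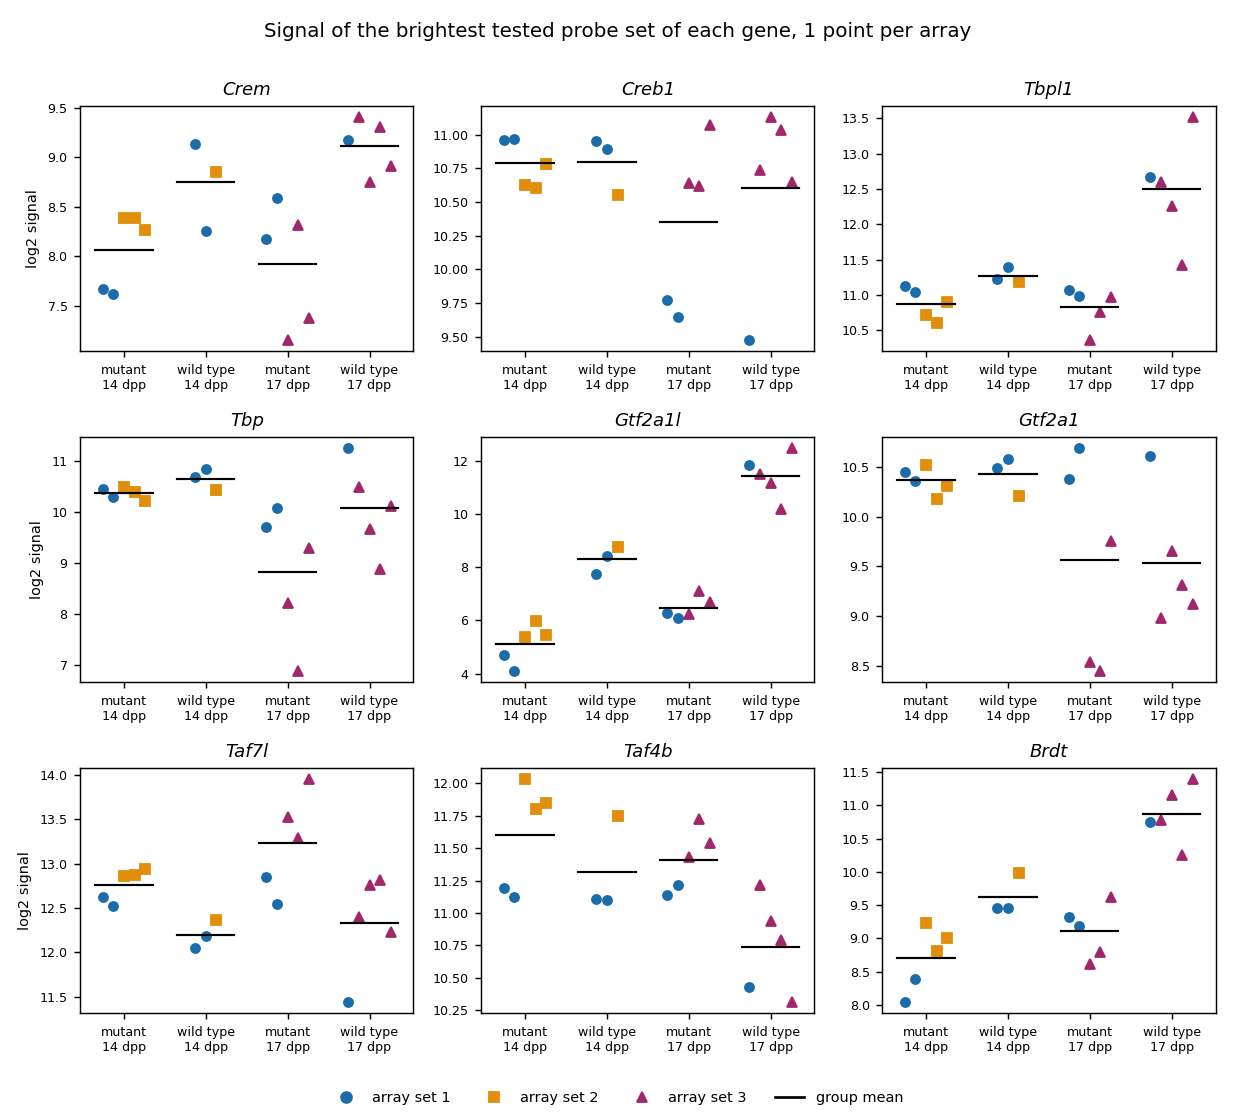
Log2 MAS5 signal (vertical axes, not shared) of the brightest tested probe set of 9 genes in each group, with 1 point per array, shaped and coloured by array set, and a bar at the group mean. Gtf2a1l, Brdt, Tbpl1 and Crem have all mutant arrays below all wild-type arrays at 17 dpp, while the genotypes overlap there for Creb1 and Gtf2a1, whose set 1 arrays lie apart from most of set 3.

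Gtf2a1l, on chromosome 17, had the widest gap of all members at its single probe set, 1418426_at. Its signals at 14 dpp were 26.3, 17.1, 41.4, 63.6 and 44.1 in mutants and 214, 341 and 430.0 in wild type. By 17 dpp the signals were 77.2, 67.6, 75.7, 138 and 103 in mutants and 3674, 2916, 2327, 1167 and 5725 in wild type. The genotypes did not overlap at either age, and no mutant array of 14 dpp exceeded its own array's 40th percentile, so the fold at that age rests on low signals. The log2 difference was −3.17 ± 0.48 (SE) at 14 dpp (adjusted p = 0.00404, limma) and −4.96 ± 0.42 at 17 dpp (adjusted p = 4.01e-07), a fall of 9.03-fold and 31.2-fold. The call at 17 dpp held within set 1 (−5.67 ± 0.69) and within set 3 (−4.66 ± 0.43). At 14 dpp the call held within set 1 (−3.67 ± 0.56), where 0.201% of all probe sets were called lower. It held with replicate number as a block (−3.57 ± 0.51, adjusted p = 0.0349), under which the count of all probe sets called fell from 68 to 30 (0.0863%). It was lost within set 2 (−3.14 ± 0.65, adjusted p = 0.141) and without wild-type replicate 2 (−3.12, adjusted p = 0.0576).

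The widely expressed TFIIA gene Gtf2a1, on chromosome 12, gave another picture. At its brightest probe set, 1454631_at, the 14 dpp signals lay between 1157 and 1467 in mutants and between 1179.8 and 1532 in wild type. Its signals at 17 dpp were 1335, 1651, 374, 349 and 865 in mutants and 1557, 505, 809, 637 and 559 in wild type. The highest values of both genotypes came from set 1, and the groups overlapped. The log2 difference was −0.06 ± 0.46 at 14 dpp and 0.03 ± 0.40 at 17 dpp (adjusted p = 0.982, limma), and at 17 dpp it turned negative under settings that rescale the arrays or take the array set into account, such as a common median (−0.12) or the set block (−0.27). A second probe set, 1433511_at, had 17 dpp signals of 173, 253, 504, 219 and 721 in mutants and 402, 841, 1275, 787 and 958 in wild type. Its log2 difference of −1.31 ± 0.38 had an adjusted p of 0.0520 by limma. It was called with the set block (−1.08 ± 0.28, adjusted p = 0.0121) and after scaling to a common median (−1.45, adjusted p = 0.0466). The third, 1421357_at, gave 0.68 ± 0.30 at 17 dpp (adjusted p = 0.212). The 3 probe sets of Gtf2a1 did not share a sign at 17 dpp.

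Brdt, on chromosome 5, encodes the testis BET protein, and its 2 brighter probe sets fell in mutants at 17 dpp. At 1435502_a_at the signals at 14 dpp were 207, 222, 459, 467 and 350.5 in mutants and 429.8, 560.3 and 1217 in wild type. In the older testes they were 239, 234, 433, 403 and 384 in mutants against 2102, 4221, 4004, 2374 and 6816 in wild type. Mutant arrays thus stayed in the range of the younger mutants while every older wild-type array was above every other array of the probe set. The log2 difference at 17 dpp was −3.45 ± 0.37 (adjusted p = 6.09e-06, limma), a fall of 10.9-fold. At 14 dpp it was −1.05 ± 0.43 (adjusted p of about 1), and −1.34 ± 0.25 (adjusted p = 0.0181) with the set block. The change of the genotype difference from 14 to 17 dpp was −2.40 ± 0.57 (adjusted p = 0.117), and −1.94 ± 0.33 (adjusted p = 0.00716) with that block.

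At the other called Brdt probe set, 1450178_at, signals at 14 dpp were 264, 336, 602, 451 and 511 in mutants and 699, 702 and 1010.1 in wild type. The 17 dpp signals were 637, 584, 393, 443 and 791 against 1725, 1753, 2285, 1221 and 2703. The genotypes did not overlap at either age. The log2 difference was −0.93 ± 0.33 at 14 dpp, which did not pass, and −1.76 ± 0.28 at 17 dpp (adjusted p = 5.11e-04, limma). The 17 dpp call was lost within set 1, which has 1 wild-type array (−1.5 ± 0.44, adjusted p = 0.0999). It was also lost without the set 3 arrays (adjusted p = 0.0639). The third Brdt probe set, 1444667_at, gave −0.38 ± 0.28 at 17 dpp (adjusted p = 0.492), so the size of the Brdt difference depends on the probe set read.

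Tbpl1, the TBP relative on chromosome 10, was bright at every age. At 1431415_a_at the signals at 14 dpp were 2233, 2113, 1684, 1560.0 and 1913 in mutants and 2403, 2704 and 2335 in wild type. Among the arrays of 17 dpp they were 2143, 2029, 1315, 1731 and 2018 in mutants and 6506, 6227, 4923, 2756 and 11713 in wild type. All mutant arrays lay below all wild-type arrays of their age, by a small margin at 14 dpp and a large one at 17 dpp. The log2 difference was −0.39 ± 0.33 at 14 dpp, which did not pass, and −1.67 ± 0.28 at 17 dpp (adjusted p = 8.74e-04, limma). Within set 1 the 17 dpp value was of the same size but not called (−1.64 ± 0.53, adjusted p = 0.143), and within set 3 it was called (−1.75 ± 0.33). The dimmer probe set 1434907_at gave −0.25 ± 0.56 at 17 dpp, and −0.73 ± 0.20 (adjusted p = 0.0150) with the set block.

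TBP is the widely expressed factor that TBPL1 resembles, and its brightest probe set, 1426469_a_at, varied strongly between arrays of 1 group. Tbp signals at 14 dpp were 1392, 1256, 1425, 1338 and 1188 in mutants and 1643, 1826 and 1369 in wild type. The older arrays read 829.6, 1072, 297, 118 and 624 in mutants and 2431, 1425, 812, 474 and 1102 in wild type. The genotypes overlapped at both ages, and within each array set of 17 dpp most mutant arrays were below the wild-type arrays. The Tbp log2 difference at 17 dpp was −1.25 ± 0.49 (adjusted p = 0.164, limma) and did not pass. It passed within set 3 (−1.65 ± 0.43, adjusted p = 0.0215) and with the set block (−1.57 ± 0.34, adjusted p = 0.00370). At 14 dpp it was −0.28 ± 0.57. The second Tbp probe set, 1426470_at, exceeded its array's 40th percentile on 3 of the 18 arrays and on none of 14 dpp, so its differences of 1.37 ± 0.57 at 14 dpp and −1.03 at 17 dpp, neither called, rest on low signals.

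CREM is the activator of spermatid genes, and 2 of its 4 probe sets fell in mutants at 17 dpp. At Crem probe set 1430847_a_at the signals at 17 dpp were 77.2, 133, 144, 193 and 120.3 in mutants and 1548, 784, 672, 273 and 805 in wild type. At 14 dpp they were 80.5, 80.9, 142, 202 and 160.1 against 167, 288 and 396. The genotypes were apart at 17 dpp and overlapped at 14 dpp. The log2 difference was −2.47 ± 0.42 at 17 dpp (adjusted p = 9.20e-04, limma) and stayed called under every alternative setting and every left-out array, with values from −3.93 to −1.96. At 14 dpp it was −1.10 ± 0.49, which did not pass.

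At the brightest Crem probe set, 1418322_at, the signals at 14 dpp were 204, 197, 335, 335 and 308 in mutants and 561, 306 and 462 in wild type. By 17 dpp the signals were 288, 385, 142, 319 and 166 in mutants and 576, 677, 431, 633 and 481 in wild type. The groups were apart at 17 dpp, with the lowest mutant signals on 2 arrays of set 3. The log2 difference there was −1.19 ± 0.31 (adjusted p = 0.0276, limma), and −0.68 ± 0.35 at 14 dpp, which did not pass. The 17 dpp call was lost within set 1 and without the set 3 arrays (−0.79 in both), with array weights (−1.39, adjusted p = 0.0601) and with the 2 groups alone (adjusted p = 0.13). Among single arrays it was lost without mutant replicate 3 (−0.995, adjusted p = 0.0727), mutant replicate 5 (−1.05, 0.0592), wild-type replicate 2 (−1.11, 0.0740) or wild-type replicate 4 (−1.14, 0.0533). With the set block it was −1.29 ± 0.25 (adjusted p = 0.00174).

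The other Crem probe sets did not separate the genotypes. At 1449037_at the log2 difference was −0.20 ± 0.40 at 14 dpp and −0.08 ± 0.35 at 17 dpp. At 1430598_at every array of sets 1 and 2 lay between 16.9 and 54.9 and every array of set 3 between 214 and 439, in both genotypes, so that this probe set followed the array set. Crem makes activator and repressor transcripts from several promoters, and the files do not say which of them each probe set reads.

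**Figure D2:**
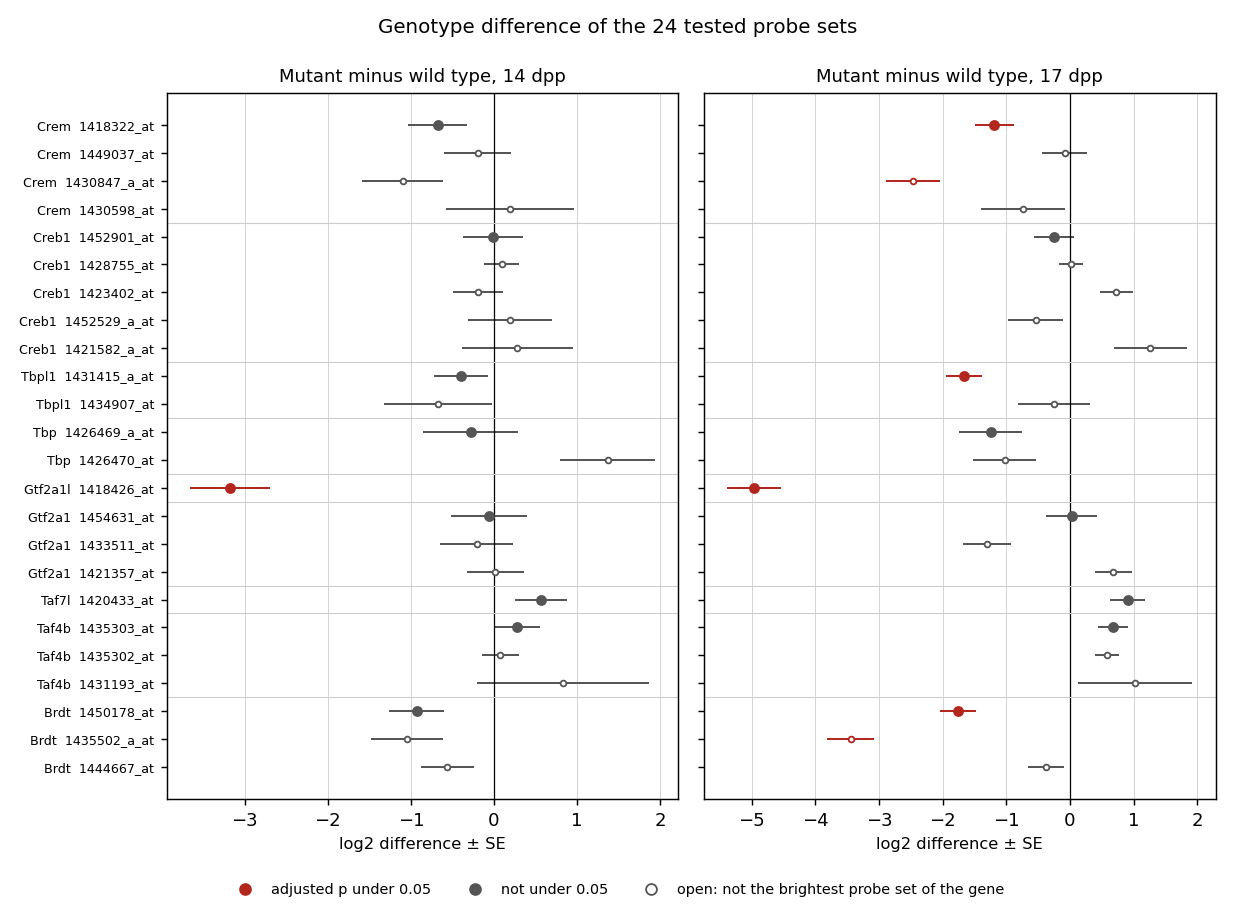
Log2 difference, mutant minus wild type, with its limma standard error (horizontal axis) for the 24 tested probe sets of 9 genes (vertical axis) at 14 dpp (left) and 17 dpp (right), with different horizontal scales. Red marks an adjusted p under 0.05 and open points are probe sets other than the brightest of the gene. At 17 dpp 6 probe sets of Crem, Tbpl1, Gtf2a1l and Brdt are called, all to the left of 0, while Crem 1449037_at (−0.08) and Tbpl1 1434907_at (−0.25) lie nearer to 0.

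Creb1, the widely expressed relative of Crem on chromosome 1, had 6 probe sets, of which 5 were tested. At the brightest, 1452901_at, the 14 dpp signals lay between 1554 and 1999 (mutants) or between 1505 and 1977 (wild type). In the older testes they were 875, 802, 1595, 1569 and 2149.7 in mutants and 712, 1704, 2239.5, 2099 and 1602 in wild type. The low values were those of set 1 in both genotypes, and the groups overlapped. Its log2 difference was −0.01 ± 0.36 at 14 dpp and −0.26 ± 0.31 at 17 dpp (adjusted p = 0.702, limma). The second brightest probe set, 1428755_at, gave 0.02 ± 0.18 at 17 dpp (adjusted p = 0.978), with signals of 719 to 1189 over the 10 arrays. A dimmer one, 1423402_at, gave 0.73 ± 0.26 (adjusted p = 0.124) and was called with the set block (0.85 ± 0.20, adjusted p = 0.00618). The dimmest tested, 1452529_a_at and 1421582_a_at, gave −0.54 ± 0.44 and 1.26 ± 0.58, neither called. The Creb1 probe sets thus took both signs, with no call over all arrays.

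Fhl5, the CREM coactivator on chromosome 4, was left out of the tests by the filter on low signal. Its only probe set, 1449332_at, exceeded its array's 40th percentile on 2 of 18 arrays, both mutant, replicate 3 of 14 dpp and replicate 5 of 17 dpp. The signal was 5.5, 2.51, 88.6, 87.9 and 30.6 in mutants and 9.19, 15.7 and 32.6 in wild type at 14 dpp. It was 11.9, 15.2, 13, 19 and 84.1 in mutants and 4.95, 56.9, 13.9, 5.61 and 18.1 in wild type at 17 dpp. The genotypes overlapped at both ages. In the fit without the filter the log2 difference was 0.26 ± 1.12 at 14 dpp and 0.65 ± 0.97 at 17 dpp (adjusted p = 0.813, limma).

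Taf7l and Taf4b encode germ-cell TAFs, and their log2 differences at 17 dpp were positive without passing the test. Taf7l, an X-linked paralogue of Taf7, gave at 1420433_at 6306, 5889.6, 7465, 7506 and 7841 in mutants of 14 dpp and 4247, 4662 and 5270.0 in wild type. At 17 dpp it gave 7362, 5995, 11766, 10034 and 15919 in mutants and 2780.1, 5419, 6951, 7189 and 4806 in wild type. Mutants were apart from and above wild type at 14 dpp, and at 17 dpp 1 mutant array, of set 1, lay within the wild-type range. The log2 difference was 0.56 ± 0.31 at 14 dpp and 0.90 ± 0.27 at 17 dpp (adjusted p = 0.0602, limma), which did not pass. It passed within set 1 (1.26 ± 0.29), within set 3 (1.04 ± 0.18) and with the set block (1.1 ± 0.14, adjusted p = 2.74e-05). After scaling to a common median it was 0.76 ± 0.26 (adjusted p = 0.146).

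Taf4b encodes a gonad-enriched paralogue of TAF4. At its brightest probe set, 1435303_at, signals at 14 dpp were 2336, 2227, 4196, 3578 and 3677 in mutants and 2207, 2194 and 3435 in wild type. The 17 dpp signals were 2249, 2379, 2765, 3377 and 2976 in mutants and 1380.0, 2378, 1963, 1774 and 1274 in wild type. At 14 dpp the high values were those of set 2 in both genotypes, and at 17 dpp 1 mutant array lay below the highest wild-type array. The log2 difference at 17 dpp was 0.67 ± 0.24 (adjusted p = 0.119, limma) and was called with the set block (0.75 ± 0.14, adjusted p = 0.00132). The second probe set, 1435302_at, gave 0.59 ± 0.19 (adjusted p = 0.0818) and 0.63 ± 0.16 (adjusted p = 0.00956) with the block. The third, 1431193_at, ran from 3.16 to 717 over the arrays with the highest values in set 2 and was not called.

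**Figure D3:**
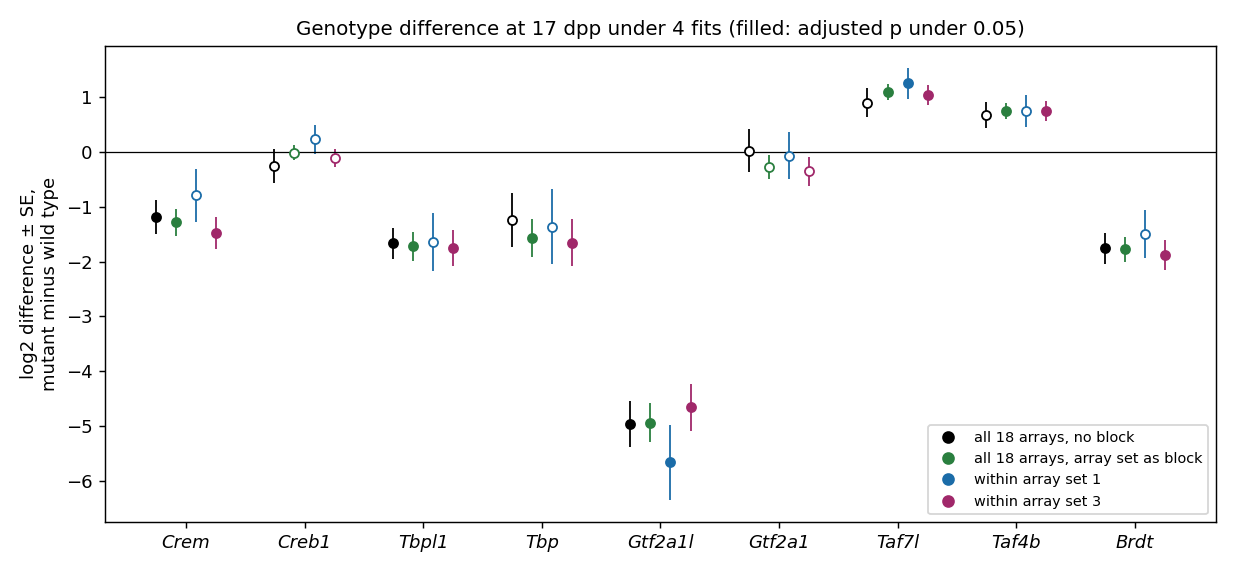
Log2 difference at 17 dpp, mutant minus wild type, with its standard error (vertical axis) for 9 genes under 4 fits: all 18 arrays, all arrays with the set block, and within sets 1 and 3. Filled points have an adjusted p under 0.05. Gtf2a1l lies between −5.67 and −4.66 under all 4, and Tbp, Taf7l and Taf4b are filled with the block and open over all arrays without it.

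The ratio of a testis gene to its widely expressed relative within an array asks whether the pair moved unequally, since array-wide scaling cancels in it. Only the difference of such a ratio between groups has a meaning, because probe sets differ in brightness. The log2 ratio of Gtf2a1l to Gtf2a1 differed by −3.11 (mutant minus wild type) at 14 dpp and by −4.99 at 17 dpp, and all 5 mutant arrays lay below all wild-type arrays at both ages. At 17 dpp it was −3.09 ± 1.33 (SD, n = 5) in mutants and 1.9 ± 1.02 (SD, n = 5) in wild type, with p = 0.00794 in a two-sided exact permutation test, the smallest possible there (adjusted p = 0.0476 over 6 ratios). At 14 dpp it was −5.24 ± 0.80 (SD, n = 5) and −2.12 ± 0.64 (SD, n = 3), with an exact p of 0.0357, again the smallest possible (adjusted p = 0.107). At 17 dpp the ratio differed by −5.60 in set 1 and −4.31 in set 3. It was −4.95 with permutation within array sets, where the exact p of 0.0190 was the smallest possible over 105 assignments (adjusted p = 0.114).

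The other pairs did not pass. The log2 ratio of Crem to Creb1 differed by −0.67 at 14 dpp (exact permutation p = 0.179, adjusted 0.298) and by −0.93 at 17 dpp (exact p = 0.198, adjusted 0.298). The mean over all tested probe sets of each gene gave −0.52 (adjusted p = 0.0429, exact permutation) and −1.36 (adjusted p = 0.0238) instead. At 14 dpp its exact p was 0.0357, the smallest possible, as it was for the same mean of Tbpl1 over Tbp. The adjusted p of 0.0429 depends on that tie with a ratio not read as a difference below, so −0.52 is not read as a pass. The largest part of the mean for Crem over Creb1 at 17 dpp was Crem 1430847_a_at (−2.47). Dim probe sets are in it as well. Creb1 1421582_a_at (0.28 at 14 dpp and 1.26 at 17 dpp) exceeded its array's 40th percentile on 11 of 18 arrays. Crem 1430598_at (0.19 and −0.74) did so on 7. The former lowers the ratio at both ages, and the latter raises it at 14 dpp. For Tbpl1 over Tbp the difference was −0.11 at 14 dpp (exact p = 0.607) and −0.42 at 17 dpp (exact p = 0.508, adjusted 0.607), and mutant and wild-type arrays overlapped at both ages. Within set 3 it was −0.10, where the genes' own differences were −1.75 and −1.65. The mean over all tested probe sets gave −1.08 at 14 dpp and 0.18 at 17 dpp, but it takes in Tbp 1426470_at, which exceeded its array's 40th percentile on none of the 8 arrays of 14 dpp, and it is not read as a difference.

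**Figure D4:**
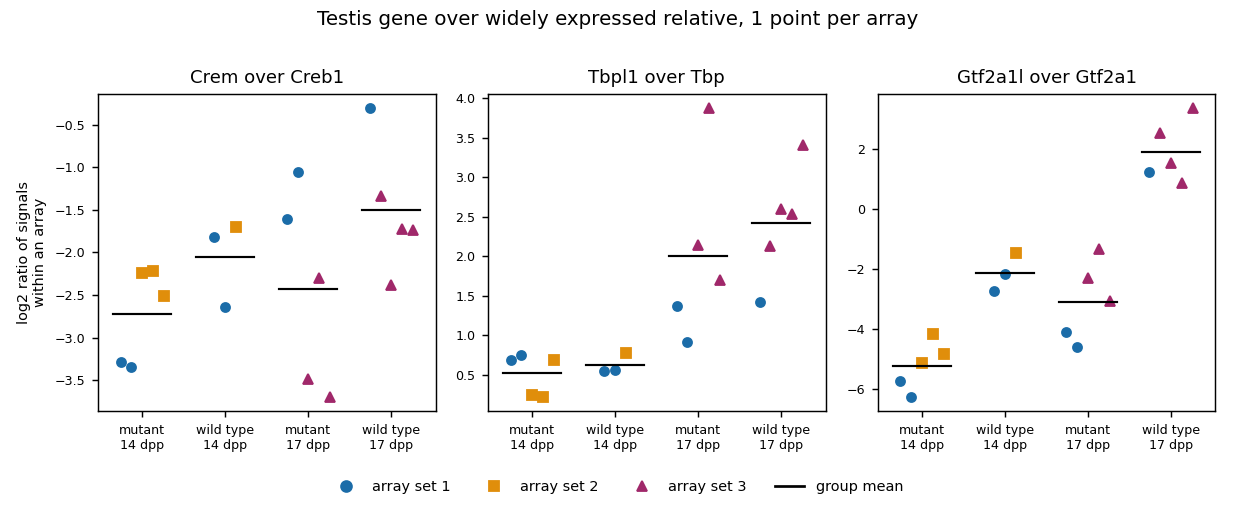
Log2 ratio within an array of the signals of a testis gene and its widely expressed relative (vertical axes, not shared) in each group, with 1 point per array by array set and a bar at the group mean. For Gtf2a1l over Gtf2a1 all mutant arrays lie below all wild-type arrays of their age, with group means of −3.09 and 1.9 at 17 dpp, while the genotypes overlap for Crem over Creb1 and for Tbpl1 over Tbp.

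Between 14 and 17 dpp, signals of Gtf2a1l, Brdt and Tbpl1 rose in wild type at the probe sets called lower in mutants at 17 dpp. Arrays of set 3 occur at 17 dpp and those of set 2 at 14 dpp alone. The median log2 difference with age of all 15307 genes was −0.41 in wild type, and a common median raised the differences there by 0.36. Other probe sets of these genes did not pass (0.02 ± 0.32 at Brdt 1444667_at and −0.97 ± 0.65 at Tbpl1 1434907_at). Gtf2a1l rose from a geometric mean of 316 to 2782 (log2 difference 3.14 ± 0.48, adjusted p = 7.96e-04, limma), an 8.82-fold increase. Brdt rose by 2.42 ± 0.43 at 1435502_a_at (adjusted p = 0.00210) and by 1.24 ± 0.33 at 1450178_at (adjusted p = 0.0178), and Tbpl1 rose by 1.22 ± 0.33 (adjusted p = 0.0187). Under the set block these were 3.40, 2.11, 1.54 and 1.36, all called. The calls of Gtf2a1l and of Brdt 1435502_a_at held when any wild-type array was left out. Those of Tbpl1 (without wild-type replicate 1 or 3 of 14 dpp) and Brdt 1450178_at (without replicate 1 or 2) were lost under 2 of 8 such fits each, with values from 0.97 to 1.49 and from 1.11 to 1.42.

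Crem 1430847_a_at rose by 1.41 ± 0.49 in wild type (adjusted p = 0.0467, limma) and by 1.92 ± 0.54 (adjusted p = 0.0366) with the block. Its call over all arrays was lost in 7 of 8 fits without 1 array. The brightest Crem probe set, 1418322_at, gave 0.36 ± 0.35 (adjusted p = 0.489), and 1449037_at gave −0.62 ± 0.40, neither called. The other 4 age calls in wild type, of Crem 1430598_at, Gtf2a1 1433511_at and Tbp 1426470_at (higher) and Creb1 1421582_a_at (lower), were lost with the block, Crem 1430598_at going from 2.67 ± 0.76 to 0.47 ± 0.54 (adjusted p = 0.658). Over the 24 probe sets, 8 were called higher and 1 lower with age in wild type, against 4.86% and 16.5% of all probe sets. With the block 5 were called higher and 2, both of Creb1, lower, against 3.06% and 4.57%. Creb1 1452901_at was then lower by 1.26 ± 0.20 in wild type (adjusted p = 0.00101) and by 1.35 ± 0.18 in mutants (adjusted p = 4.94e-04), where 1.23% of all probe sets were called lower. Without the block it had not passed.

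In mutants no member was called with age without the block (limma, 6 of 24 with an unadjusted p under 0.05), against 1.92% of all probe sets called. Gtf2a1l was nearest, with all 5 arrays of 17 dpp above all 5 of 14 dpp, as for 1.86% of all probe sets, and a log2 difference of 1.35 ± 0.42 (adjusted p = 0.0732). It was called at 1.69 ± 0.41 (adjusted p = 0.0278, limma) after scaling to a common median, but not with the set block or within set 1. Its mutant signals of 14 dpp all lay below their array's 40th percentile. Tbpl1 was at −0.05 ± 0.28 and Brdt 1435502_a_at at 0.02 ± 0.37. The median of all 15307 genes with age in mutants was −0.26, and a common median raised the differences there by 0.33. Values near 0 before that scaling thus lay above the array-wide median. For Gtf2a1l the order of the groups was mutant 14, mutant 17, wild type 14 and wild type 17 dpp, and no neighbours in that order overlapped. For Tbpl1 both mutant groups overlapped and were followed by wild type at 14 and then at 17 dpp. The change of the genotype difference with age passed for none of the 24 (limma, 6 with an unadjusted p under 0.05), against 0.204% of all probe sets, and with the block it passed for Brdt 1435502_a_at alone, against 1.13% of all called lower.

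In bulk testis, fewer cells of a type and less RNA per cell cannot be told apart. The 10 pachytene spermatocyte markers (such as Piwil1, Ldhc and Hspa2) had lower means in mutants. So had Gtf2a1l, Brdt, Tbpl1 and Crem at their brightest probe sets, while Taf7l and Taf4b had higher ones. Of the 10 markers, 7 were called lower at 14 dpp and 9 at 17 dpp, against 0.32% and 7.86% of all genes called. The markers were chosen with earlier results of these data known, so these counts are descriptions and not a test. Their median log2 differences were −2.88 and −5.38. At 17 dpp 0 of 5 mutant arrays exceeded their 40th percentile for Pgk2 and Spag6l, and 2 of 5 for Adam2. At 14 dpp 0 of 5 did for Adam2, Pgk2 and Spag6l. Pgk2 and Spag6l exceeded it on wild-type arrays alone, and so passed the filter through the genotype where they are high. Some of these sizes thus rest on low signals. At 14 dpp their summed signal was 1577 to 2565 in mutants and 12720 to 19340 in wild type, and at 17 dpp the same sums were 1973 to 3754 and 67443 to 140446. None of the 10 spermatogonial, 10 Sertoli, 4 Leydig or 5 myoid markers was called at 17 dpp (6, 3, 1 and 0 with an unadjusted p under 0.05). Their medians there were 0.96, 0.70, 1.0 and 0.63, and 1 of 5 macrophage markers, Csf1r, was called higher (4 with an unadjusted p under 0.05), with a list median of 1.03. At that age the summed signal was 8379 to 20379.6 in mutants and 3942 to 12148 in wild type for spermatogonial markers, and 43530.4 to 65473 and 30898 to 52745 for Sertoli markers, so that the genotypes overlapped in both. They overlapped for Leydig markers (2118 to 6658 and 1394 to 3509) and myoid markers (12235 to 21086 and 8351 to 16093) as well. For macrophage markers they did not, with sums of 5101 to 7696 in mutants and 1952 to 4107 in wild type. The part of cell composition in the differences of the members was not tested.

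Of 71 tested genes in 6 lists of the CREM pathway and the core transcription machinery, 5 were called at 17 dpp, a share near the 7.86% of all 15307 genes. Of 19 tested partners of CREM and CREB and cAMP signalling genes, 1 was called lower at 17 dpp, Fhl4, another LIM-only protein gene of the testis, from a geometric mean of 1681 in wild type to 36.6 in mutants (−5.52 ± 0.92, adjusted p = 7.73e-04). Only 2 of the 5 mutant arrays exceeded their 40th percentile for Fhl4, so the size of this difference rests on low signals. Prkacb, a catalytic subunit of protein kinase A, was called higher (1.02 ± 0.23, adjusted p = 0.0125). The median of the list was 0.38, against 0.26 for all genes. Of 8 tested spermatid genes regarded as CREM targets, Acr, the acrosin gene, was called lower (−2.66 ± 0.47, adjusted p = 0.00128), with a list median of −0.07. Several of the 8 had geometric means at 17 dpp from 18.7 to 77.7 in both genotypes, against array 40th percentiles of 49.2 to 93.4. The list median thus rests in part on low signals.

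Among 14 tested TFIID subunits other than the members, Taf2 was called lower (−0.66 ± 0.17, adjusted p = 0.0286), and the list median was 0.24. Among 15 other general transcription factors of RNA polymerase II, Gtf2h1, a TFIIH subunit, was called lower (−0.78 ± 0.21, adjusted p = 0.0317), with a list median of −0.11. None of 10 RNA polymerase II subunits was called (2 with an unadjusted p under 0.05). All 10 had a positive log2 difference, with a median of 0.50, against 0.26 for all genes. None of 5 tested BET and P-TEFb genes was called (1 with an unadjusted p under 0.05), with a median of 0.45. At 14 dpp limma called none of the 71 (1, Acr, with an unadjusted p under 0.05), against 0.32% of all genes.

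The genes most like each member were read as the 3 with the highest Pearson r to its brightest probe set over the 18 arrays, after the mean of each combination of age and array set was removed. Arrays share their RNA and genotype across genes, so these values are descriptions. Gtf2a1l was most like Lrrc34 (r = 0.992), 1700006J14Rik (0.989) and Hspa2 (0.983), the last a pachytene marker above. Brdt was most like Hspa4l (0.966), Pdha2 (0.960) and Ybx2 (0.960), and Tbpl1 most like Phospho2 (0.977), Spata1 (0.974) and Ncbp1 (0.969). Crem had lower values, with Man1b1 (0.893), Cep72 (0.880) and Piwil2 (0.878). Tbp was most like Cdkn2d (0.977), Cfap20 (0.976) and Nudt4 (0.973).

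The 3 genes most like Taf7l, which is X-linked, were Vbp1 (r = 0.975) and Mmgt1 (0.964) on the X chromosome and Eif2s3y (0.970) on the Y chromosome. Taf4b was most like Slc37a3 (0.946), Stat6 (0.944) and Thap12 (0.940), Creb1 like Brd3 (0.902), Tnip2 (0.872) and Il4ra (0.872), and Gtf2a1 like Pbrm1 (0.936), Zfp932 (0.910) and Tead2 (0.909). Among the members, r by the same measure was 0.934 between Gtf2a1l and Brdt, 0.868 between Gtf2a1l and Tbpl1 and 0.816 between Gtf2a1l and Crem. It was −0.932 between Gtf2a1l and Taf7l, 0.806 between Tbpl1 and Tbp, 0.238 between Gtf2a1l and Gtf2a1 and −0.07 between Crem and Creb1.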

How the data were processed

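Whole-testis RNA was hybridised to 18 Affymetrix mouse arrays, per the labels. The authors deposited linear intensity, the MAS5 signal; the series' design text names GCOS as the software, and the submitters' processing notes name MAS5 without a version. A mean trimmed by 2% at each end was 500.0 on the arrays of sets 1 and 2 and 394.9 on those of set 3, and no normalization between arrays is stated or was added. Of 45101 probe sets, 64 controls were left out. Of the other 45037, 34945 named 1 gene, 932 several and 9160 none, in GEO's platform annotation. Those above their array's 40th percentile (signal 49.2 to 93.4) on at least 3 arrays were tested, 34764 in all, and a gene was read at its brightest tested probe set (15307 genes).

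A linear model of log2 signal with a term for each group took in all 18 arrays (limma 3.58.1, R 4.3.3; variances moderated with a trend on mean signal). The two-sided p-values were adjusted by Benjamini-Hochberg over the 34764 probe sets, with a threshold of 0.05, and each ± is a standard error unless SD is named. The method was tested on simulated data with independent noise and without array sets, so that test cannot speak to the effect of the array sets. Ratios used exact permutation tests (SciPy 1.17.1, Python 3.11.15). Array sets were cut from the β-actin ratio at 1.9 and 10, and the block fit left 12 residual degrees of freedom. Within-set values came from 1 fit with a mean for each group and set, so a lone array takes its spread from the others. No arrays were identical, and the correlation between arrays of a group was 0.615 to 0.956. Deviations of same-numbered mutant and wild-type arrays from their group means correlated at 0.283, 0.355 and 0.385 at 14 dpp. They were read as pairs in the replicate block alone, and the main fit and main ratio tests did not pair arrays. Each of those pairs lay in 1 array set, no label pairs the arrays, and pairing cannot be told from the shared set. At 17 dpp the values were 0.777, 0.226, 0.385 and 0.207 within 1 set and −0.227 for replicate 2, across sets 1 and 3. These were not read as pairs.

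The text names all members, the 3 genes most like each, and up to 6 called genes of each list. The members, the lists, the markers and the array sets were chosen with earlier results of these data known. Alternatives tried were quantile normalization, a common median, log2(signal + 16), no filter, array set as block, within or without sets, array weights, 2 groups alone, an analysis of variance at an adjusted p of 0.025, a replicate block and leaving out each array.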

Additional observations from a re-analysis of the deposited data

Results flagged for a closer look

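Among groups of 5 arrays, 78 combinations of a group with one of the 26 member probe sets and 9 with one of the ratios were examined. In 3 of these 87, 1 array lay far from the others, and about 1 in 20 would by chance. At Tbpl1 1434907_at, wild-type replicate 1 of 17 dpp had a log2 signal of 10.53, and the other 4 arrays of the group ran from 7.47 to 8.17. That array is the only one of its group in set 1. At Gtf2a1 1433511_at, mutant replicate 3 of 14 dpp had a log2 signal of 8.40, and the others of its group ran from 7.57 to 7.67. It lies in set 2 with 2 of them. At Fhl5 1449332_at, mutant replicate 5 of 17 dpp had a log2 signal of 6.39, and the others of its group ran from 3.58 to 4.24.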

How the results depend on the processing

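The count of all probe sets called at 14 dpp, 68, was 128 with the set block, 31 within set 2, 233 without set 3, 5357 with array weights, 177 with 2 groups alone, 33 by analysis of variance and 30 with the replicate block. At 17 dpp the 1854 (513 higher, 1341 lower) became 6550 with the set block (3751 higher, 2799 lower), 990 within set 1, 4006 within set 3, 862 with 2 groups alone (25 higher, 837 lower) and 3620 with the replicate block, where the numbers do not pair. A common median gave 114 higher and 1341 lower, and quantile normalization 322 and 1492. The 71 called for the change of the genotype difference with age became 177 with log2(signal + 16), 416 with the set block, 481 without set 3, 413 with array weights, 4 by analysis of variance and 30 with the replicate block. Within set 1 limma called 0 of them (1843 with an unadjusted p under 0.05). The 7438 called with age in wild type (1688 higher, 5750 lower) became 3716 with a common median (2401 higher, 1315 lower), 2654 with the set block, 759 within set 1, 3661 without set 3, 17593 with array weights and 2493 by analysis of variance. The 667 in mutants (147 higher, 520 lower) became 1724 with a common median (1395 higher, 329 lower), 1521 with log2(signal + 16), 238 within set 1, 2269 without set 3, 12473 with array weights, 205 with 2 groups alone and 212 by analysis of variance. Leaving out 1 array gave 24 to 65, 1206 to 3947, 0 to 133, 1286 to 12474 and 97 to 6951 for the 5 counts in this order. The cause was not tested.

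Of the log2 differences of 15 member probe sets, none of the reversed values was called. Creb1 1452901_at turned positive at 14 dpp with quantile normalization (0.016), the set block (0.071), within set 1 (0.039), within set 2 (0.11) and with the replicate block (0.050), and at 17 dpp within set 1 and without set 3 (0.24 in both). Creb1 1423402_at was 0.0012 within set 2 at 14 dpp, and Taf4b 1435302_at was −0.041 at that age with a common median. Gtf2a1 1454631_at was 0.13 within set 2 and 0.018 with the replicate block at 14 dpp. At 17 dpp it was −0.14 with quantile normalization, −0.12 with a common median, −0.27 with the set block, −0.069 within set 1 and without set 3, −0.35 within set 3 and −0.093 with array weights. Leaving out 1 array gave −0.14 to 0.061 for Creb1 1452901_at and −0.17 to 0.018 for Gtf2a1 1454631_at at 14 dpp, and −0.25 to 0.31 for the latter and −0.63 to 0.28 for Tbpl1 1434907_at at 17 dpp. Of 360 values under other settings 305 kept direction and side of the threshold, 8 lost the call, 29 gained it and 18 reversed, and of 270 without 1 array 245, 5, 6 and 14 did. The mean over all tested probe sets gave ratios of −0.52 and −1.36 for Crem over Creb1, −1.08 and 0.18 for Tbpl1 over Tbp and −3.09 at 14 dpp for Gtf2a1l over Gtf2a1. At 17 dpp the last ratio was −4.95 with the set block (adjusted p = 0.114), −4.99 with the replicate block (0.375) and −5.43 to −4.61 without 1 array (0.0952), where fewer permutations exist. The replicate block could not be fitted to the age comparisons, nor 2 groups alone to the change with age.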
